A study of Mus musculus with 6 samples.

Results

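The genes followed here act in haemostasis and fibrinolysis at the vessel wall. They are Vwf, Thbd, Procr, Plat, F3, Tfpi, F8 and Plau, taken by symbol from the deposited expression table, and each symbol occurred once. They make up 8 of the 45038 genes in that table. Their levels were described in 3 libraries from infarct tissue (MI) and 3 from normal left ventricle (Normal).

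The endothelium keeps blood fluid through anticoagulant proteins on its surface and starts or limits clotting when it is injured. Tissue factor starts coagulation, tissue factor pathway inhibitor blocks that start, and thrombomodulin together with the endothelial protein C receptor turns thrombin into an activator of protein C. Von Willebrand factor binds platelets to the injured wall and carries factor VIII in plasma, while tissue-type and urokinase-type plasminogen activators begin the dissolution of fibrin. In the heart, cells other than endothelium, among them fibroblasts, muscle cells and leukocytes, are also known to make some of these proteins.

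All 6 libraries came from C57BL/6 mice that carried Tie2-Cre and Rosa-LSL-tdTomato, given as 6 to 8 weeks old. The Tie2 promoter is active in endothelium and also in part of the blood lineage, so tdTomato marks both. For the MI group the left anterior descending coronary artery was ligated and infarct tissue was taken 3 weeks later, and the labels give the Normal group no infarct surgery. Cells that carried tdTomato and lacked the macrophage antigen F4/80 were sorted after collagenase digestion, and their RNA was amplified by T7 in vitro transcription before sequencing. The libraries are called by group and the number in their titles, Ms1535, Ms1537 and Ms1608. The sources used here do not say whether equal numbers mark 1 mouse, whether animals were pooled, or that replicates were separate animals, so p-values measure only the spread between these libraries. Values are FPKM, fragment counts scaled to transcript length and to the mapped fragments of the library, so they are levels per length. Where 3 values are given for a group, they stand in the order Ms1535, Ms1537, Ms1608. The low values implied a depth of 34800000 to 48500000 fragments in each library, at which 3 fragments on a transcript of 2 kb are worth 0.0340 to 0.0474 FPKM.

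The library labelled Normal Ms1608 stood apart from the others. Its summed level of 18 pan-endothelial markers was 41.8 FPKM, against 303 to 1418 FPKM in the other 5 libraries, and none of the 18 was listed at 0. Pecam1, an adhesion molecule that leukocytes and platelets also carry, made up 28.3 FPKM of that sum and was at its highest there (7.20 to 23.7 FPKM elsewhere), while the other 17 markers were all at their lowest. Its summed level of 12 pan-leukocyte markers was 4714 FPKM, whereas Normal Ms1535 gave 331 FPKM, Normal Ms1537 gave 496 FPKM and the MI libraries gave 2671 to 2954 FPKM. Adgre1, which encodes the F4/80 antigen of the gate, ran at 0.282, 1.70 and 7.21 FPKM for MI, and at 0.128, 0.247 and 0.00904 FPKM for Normal. Across the 10168 tested genes Normal Ms1608 correlated with the other libraries at 0.54 to 0.68, whereas these correlated with each other at 0.80 to 0.92. Results are therefore given with and without Normal Ms1608. In such sorted bulk samples, fewer cells of a type and less RNA per cell cannot be told apart.

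All 8 genes were lowest in Normal Ms1608, where 44.1% of all tested genes also had their lowest value. 5 of the 8, namely Tfpi, Thbd, F3, Plat and Vwf, were highest in MI Ms1537, as were 36.3% of all tested genes. Procr and F8 were highest in Normal Ms1535 and Plau in MI Ms1535. Tfpi and Thbd were the most abundant pair in every library but Normal Ms1535, where Procr exceeded Tfpi, and together they held 57.5% to 87.6% of the summed FPKM of the 8 genes in each library. The sum itself was 104.8, 234.8 and 40.6 FPKM for the MI libraries, and 88.9, 46.0 and 1.58 FPKM for the Normal ones. Plat, Vwf, F3 and Procr lay between rank 2 and rank 6, and their order changed from library to library. F8 and Plau held ranks 7 and 8 throughout.

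**Figure D1:**
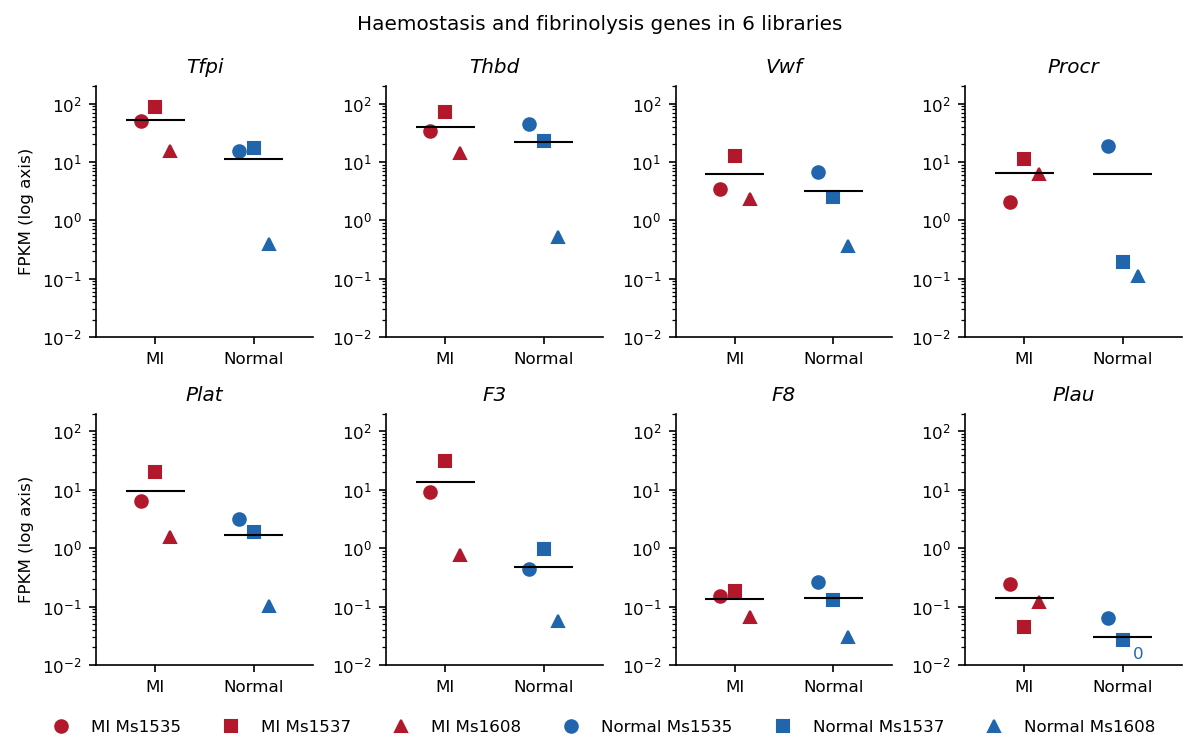
FPKM of the 8 genes on a log axis in the 3 MI libraries (red) and the 3 Normal libraries (blue), with the group mean as a black line, the number in the title given by the marker shape, and a value listed at 0 written as 0. Normal Ms1608 is the lowest library for every gene, and the groups overlap for all 8.

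Tissue factor and its inhibitor lay highest in the same MI libraries, Ms1537 and Ms1535. F3 encodes tissue factor, the receptor of factor VII that starts the clotting cascade (GRCm38, ENSMUSG00000028128.10, chr3:121723537-121735048, plus strand, protein coding, up to 6 exons). The MI libraries gave 9.04, 30.7 and 0.7496 FPKM, the Normal libraries 0.437, 0.949 and 0.0564 FPKM. MI Ms1608 thus lay below Normal Ms1537, and the groups overlapped. With at least 1 FPKM in only 2 libraries, F3 did not pass the filter for testing (1 FPKM in at least 3 libraries). The MI mean was 13.5 ± 15.5 FPKM, the Normal mean 0.481 ± 0.448 FPKM (SD, n = 3 each), and the difference on the log2(FPKM + 1) scale was 2.52 (exact two-sided permutation test, p = 0.2, where 0.1 is the smallest p that 3 against 3 allows). This difference was 2.298 without Normal Ms1608 and 1.55 without MI Ms1537. When genes were instead filtered on a mean of 5 FPKM, F3 was tested and had a limma adjusted p of 0.465.

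Tfpi encodes tissue factor pathway inhibitor, a Kunitz-type inhibitor that blocks the complex of tissue factor and factor VII (ENSMUSG00000027082.12, chr2:84432855-84476775, minus strand, protein coding, up to 10 exons). It stood at 50.1, 88.7 and 15.5 FPKM among the MI libraries (mean 51.4 ± 36.7, SD, n = 3), while the Normal ones gave 15.7, 17.6 and 0.391 FPKM (mean 11.2 ± 9.41, SD, n = 3). MI Ms1535 and Ms1537 lay far above every Normal library, while MI Ms1608 lay just below Normal Ms1535 and Ms1537. The log2 difference was 2.48 (SE 1.09, unadjusted p = 0.0456, limma adjusted p = 0.301), so the call was not made after adjustment over all genes. Without Normal Ms1608 the difference was 1.26 (SE 0.68, limma adjusted p = 0.226). Without both Ms1608 libraries it was 1.94 (SE 0.43), and Tfpi then passed the threshold (limma adjusted p = 0.0415), as did 14% of all tested genes in the direction of MI. This setting leaves out MI Ms1608, the only MI library in which Tfpi lay below Normal Ms1535 and Ms1537. The ratio of Tfpi to F3 in FPKM was 5.53, 2.89 and 20.6 in MI and 35.8, 18.5 and 6.93 in Normal, so the inhibitor exceeded tissue factor in all 6 libraries and the ratios of the groups overlapped. In Normal Ms1608 the ratio rests on an implied 3.58 fragments of F3, close to the 3 fragments taken as the floor. F3 had an implied 44 fragments in MI Ms1608, 32 in Normal Ms1535 and 56 in Normal Ms1537.

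The sequences upstream of F3 and Tfpi are shown because the log2 levels of these genes correlated at 0.997 over the 5 libraries other than Normal Ms1608 (0.81 over 6). They are the 250 bases before the start that RefSeq gives, taken from RefSeq on GRCm38.p6, which gave windows for 4 of the 8 genes, F3, Tfpi, Procr and F8. Capitals mark matches on either strand to the letters CACCC (the core bound by Krüppel-like factors), to GGAA (the ETS core), to the motif GATA and to TGACTCA (the AP-1 site), which equals TGAGTCA on the other strand. In F3 a match to the last overlaps one to CACCC. The F3 window lies at chr3:121723287-121723536 on the plus strand and the first of the Tfpi windows at chr2:84476760-84477009 on the minus strand.

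F3: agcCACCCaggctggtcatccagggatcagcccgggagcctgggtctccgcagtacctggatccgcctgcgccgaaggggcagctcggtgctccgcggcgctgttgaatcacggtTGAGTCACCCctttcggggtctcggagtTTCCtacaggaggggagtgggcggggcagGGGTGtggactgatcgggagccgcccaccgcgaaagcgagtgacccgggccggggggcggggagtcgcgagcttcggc

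Tfpi: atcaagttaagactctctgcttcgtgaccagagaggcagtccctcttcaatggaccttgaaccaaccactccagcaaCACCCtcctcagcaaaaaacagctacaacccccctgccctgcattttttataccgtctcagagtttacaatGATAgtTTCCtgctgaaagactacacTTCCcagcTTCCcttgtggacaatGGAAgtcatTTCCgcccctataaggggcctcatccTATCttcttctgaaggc

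The F3 window held 3 matches to CACCC, 1 to GGAA, 0 to GATA and 1 to the TGACTCA pair, and its GC content was 70.0%. The Tfpi window held 1, 5, 2 and 0 matches, with a GC content of 48.4%. Over 32851 promoter windows of the same length, 52.0% held CACCC, 93.4% GGAA, 53.6% GATA and 4.46% the TGACTCA pair, and the median GC content was 52.4%. A match is only a run of letters and says nothing of binding.

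The surface receptors of the protein C pathway were dominated by thrombomodulin. Thbd encodes thrombomodulin, which binds thrombin, and is a gene of 1 exon (ENSMUSG00000074743.4, chr2:148404466-148408188, minus strand, protein coding). Its MI values were 33.3, 70.8 and 13.98 FPKM, its Normal values 43.9, 22.7 and 0.518 FPKM. The second highest library was Normal Ms1535, and MI Ms1608 lay below Normal Ms1535 and Ms1537. The log2 difference was 1.503 (SE 1.20, limma adjusted p = 0.521) and was 0.03 (SE 0.67, limma adjusted p = 0.978) without Normal Ms1608, so that the value with all libraries rests on that library. With it left out, MI had 39.4 ± 28.9 FPKM (SD, n = 3) and the mean of the remaining pair was 33.3 FPKM.

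Tfpi and Thbd changed places in the order of levels. Tfpi stood above Thbd in all 3 MI libraries, with FPKM ratios of 1.503, 1.25 and 1.11, and below it in all 3 Normal libraries, with ratios of 0.356, 0.773 and 0.755. These ratios did not overlap between the groups, and no scaling of a whole library can move them. Among 10167 other tested genes, 2.63% had a ratio to Thbd that was higher in every MI than in every Normal library. The pair was chosen after its values were seen, so no test is given, and in Normal Ms1608 the ratio rests on an implied 56 and 69 fragments.

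Procr encodes the endothelial protein C receptor, which presents protein C to the complex of thrombin and thrombomodulin (ENSMUSG00000027611.9, chr2:155751117-155755471, plus strand, protein coding, up to 4 exons). Of the 5 tested genes it had the widest range within the Normal group, whose libraries gave 18.6, 0.192 and 0.112 FPKM. Normal Ms1535 exceeded Normal Ms1537 97-fold, while Thbd, Vwf, Plat, Tfpi, F3, F8 and Plau differed between these libraries by factors of 0.46 to 2.66. The low Normal values stand for an implied 9.6 and 6.01 fragments, against 1157 in Normal Ms1535. The MI values of 2.08, 11.1 and 6.30 FPKM lay between. The log2 difference was 1.13 (SE 1.10, limma adjusted p = 0.606), 0.42 without Normal Ms1608 and 2.49 without Normal Ms1535 (limma adjusted p = 0.781 and 0.292). The MI mean was 6.49 ± 4.502 FPKM, the Normal mean 6.30 ± 10.7 FPKM (SD, n = 3 each), so the means of FPKM were close while those of the log2 values were not.

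Vwf and F8, the genes of the carrier and the clotting factor it protects, differed widely in level. Vwf encodes von Willebrand factor, which endothelium stores in Weibel-Palade bodies and platelets in their granules (ENSMUSG00000001930.14, chr6:125546774-125686679, plus strand, protein coding, up to 52 exons). The MI libraries gave 3.46, 12.8 and 2.31 FPKM (mean 6.18 ± 5.75, SD, n = 3), the Normal libraries 6.81, 2.56 and 0.370 FPKM (mean 3.25 ± 3.27, SD, n = 3). MI Ms1537 was highest, Normal Ms1535 second, and the other libraries of both groups interleaved. The log2 difference was 0.81 (SE 0.84, limma adjusted p = 0.634). It was 0.16 (limma adjusted p = 0.876) without Normal Ms1608 and 0.19 (limma adjusted p = 0.972) without MI Ms1537, and turned to -0.47 (SE 0.69, limma adjusted p = 0.924) after quantile scaling.

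F8 encodes factor VIII, a cofactor of the clotting cascade (ENSMUSG00000031196.10, chrX:75172715-75382615, minus strand, protein coding, up to 26 exons). It was low in every library and was not tested, with MI values of 0.152, 0.183 and 0.0660 FPKM, next to Normal values of 0.261, 0.130 and 0.0304 FPKM. On its longest transcript these values stand for an implied 71, 73 and 22 fragments in MI and 109, 44 and 11 fragments in Normal, which puts it above the 3 fragments taken as the floor in all libraries. The group means of 0.134 ± 0.0606 and 0.140 ± 0.115 FPKM (SD, n = 3 each) differed by less than either SD (exact permutation test on log2 values, p = 1). Vwf exceeded F8 in FPKM by 12.2-fold to 69.9-fold within a library.

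The plasminogen activators were represented almost entirely by Plat. Plat encodes tissue-type plasminogen activator, the fibrin-dependent activator that endothelium releases (ENSMUSG00000031538.5, chr8:22757727-22782844, plus strand, protein coding, up to 14 exons). Its MI values were 6.44, 20.4 and 1.58 FPKM (mean 9.48 ± 9.79, SD, n = 3), its Normal values 3.14, 1.87 and 0.102 FPKM (mean 1.70 ± 1.53, SD, n = 3). MI Ms1535 and Ms1537 lay above all Normal libraries, and MI Ms1608 lay below Normal Ms1535 and Ms1537. The log2 difference was 1.66 (SE 0.88, unadjusted p = 0.0877, limma adjusted p = 0.352). It was 1.11 (SE 0.82, limma adjusted p = 0.347) without Normal Ms1608 and 0.89 (limma adjusted p = 0.757) without MI Ms1537.

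Plau encodes urokinase-type plasminogen activator, which acts mainly at cell surfaces (ENSMUSG00000021822.2, chr14:20836660-20843385, plus strand, protein coding, up to 11 exons). Its MI values were 0.247, 0.0450 and 0.120 FPKM. Normal Ms1535 gave 0.0637 FPKM and Normal Ms1537 0.0264 FPKM, and Plau was listed at 0 in Normal Ms1608. These values stand for an implied 26, 4 and 9 fragments in MI and 6 and 2 in Normal, so 4 libraries exceed the floor of 3 fragments, MI Ms1537 with only 4. The exact permutation test on log2 values gave p = 0.2, and this design cannot go below 0.1. Plat exceeded Plau 13.2-fold to 454-fold in the 5 libraries where Plau was above 0. Plaur, the urokinase receptor, was more abundant than Plau in all libraries, with MI values of 3.36, 4.98 and 3.44 FPKM, Normal values of 0.170, 0.845 and 12.3 FPKM, and the highest of them in Normal Ms1608.

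Of the 8 genes, 5 passed the filter (Vwf, Thbd, Procr, Plat and Tfpi), and 0 of these 5 were called by limma at an adjusted p of 0.05, against 1 of 10168 tested genes (0.00983%). At an unadjusted p under 0.05, 1 of 5 was higher in MI (Tfpi) and 0 lower, against 16.1% of all tested genes higher. All 5 log2 differences were above 0, with a median of 1.503, but so were 87.2% of all tested genes, whose median was 0.78. The groups did not overlap for 0 of the 5, against 25% of all tested genes that were higher in every MI than in every Normal library. Leaving out Normal Ms1608, this was still 0 of 5, against 52.6% of all tested genes. MI Ms1608, which lay below at least 1 Normal library in each of the 5, had the lowest pan-endothelial level among the MI libraries.

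**Figure D2:**
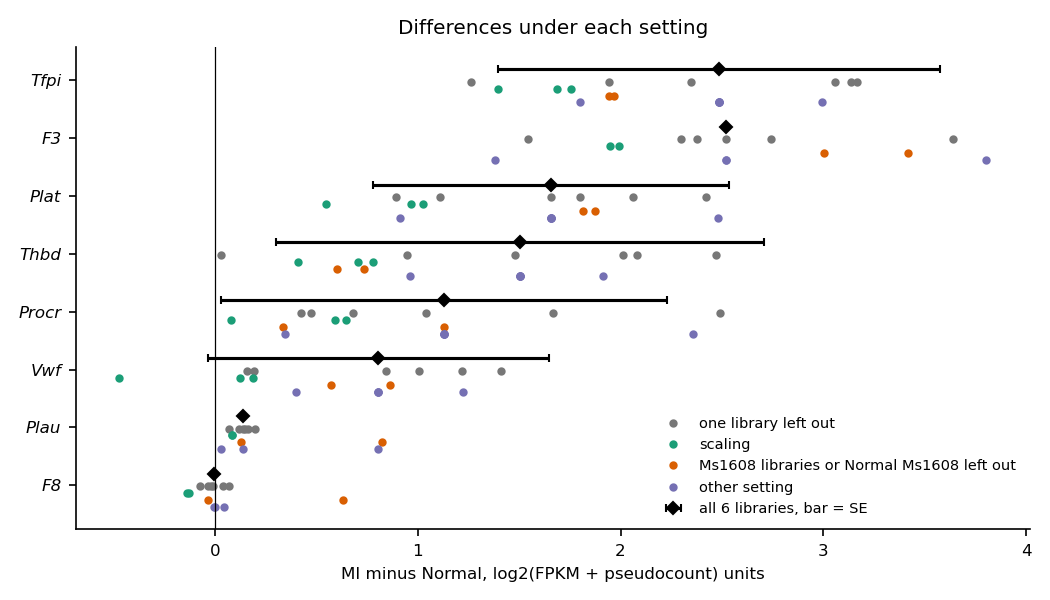
Difference of MI minus Normal for each gene on the log2 scale, with all 6 libraries as a black diamond (bar: limma SE, drawn only for tested genes) and each alternative setting as a coloured dot. Tfpi, F3 and Plat stay above 0.5 under every setting shown, Thbd, Procr and Vwf reach 0.03, 0.08 and -0.47, and F8 and Plau stay near 0 except where libraries were scaled to endothelial markers or the pseudocount was 0.1.

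Since the libraries differed in their endothelial signal, each gene was also set against the mean log2(FPKM + 1) of the 18 pan-endothelial markers in the same library. That mean was 3.69, 4.84 and 2.78 in MI and 4.76 and 4.19 in Normal Ms1535 and Ms1537. Relative to it, Tfpi stood at 1.98, 1.64 and 1.26 log2 units in MI and at -0.70 and 0.02 in those Normal libraries. Thbd stood at 1.41, 1.32 and 1.12 against 0.73 and 0.38, and Vwf at -1.53, -1.06 and -1.06 against -1.80 and -2.36. Plat stood at -0.80, -0.42 and -1.42 against -2.71 and -2.67. F3 stood at -0.36, 0.15 and -1.98 against -4.24 and -3.23. In these 5 genes all 3 MI libraries lay above both Normal libraries, as did 66.2% of all tested genes, while Procr was highest in MI Ms1608 and lowest in Normal Ms1537. Normal Ms1608 had a marker mean of only 0.87, so a gene listed at 0 FPKM stands at -0.87 there. All 8 genes lay between that floor and -0.27. Tfpi at -0.40 and Thbd at -0.27 lay below the MI libraries there too. Vwf at -0.42 lay above all 3 of them, Plat at -0.73 above MI Ms1535 and Ms1608, and F3 at -0.79 above MI Ms1608. F8 at -0.83 and Plau at -0.87, the latter listed at 0 FPKM, also lay above all 3. The floor sets much of this order, so Normal Ms1608 cannot show levels relative to endothelium. With this scaling and without Normal Ms1608, Tfpi alone among the tested genes of the group was called higher in MI (log2 difference 1.97, SE 0.72, limma adjusted p = 0.0479), against 21.2% of all tested genes.

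**Figure D3:**
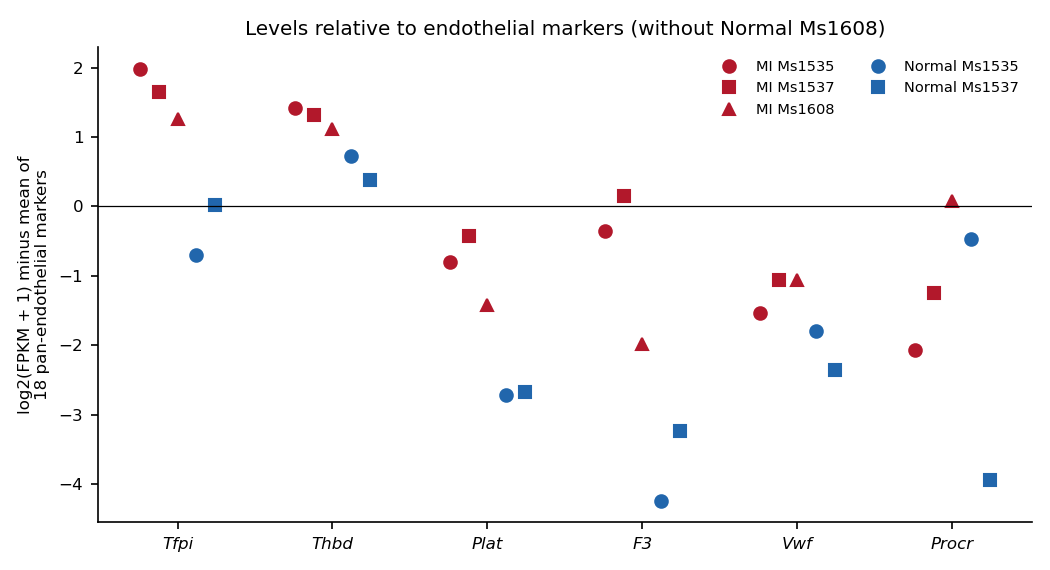
Level of 6 genes minus the mean of 18 pan-endothelial markers in the same library, in log2(FPKM + 1) units, for the 3 MI libraries (red) and Normal Ms1535 and Ms1537 (blue). For Tfpi, Thbd, Plat, F3 and Vwf the 3 MI libraries lie above both Normal libraries, and for Procr they do not. F3 lay below 1 FPKM in MI Ms1608 and in both Normal libraries, where its value mostly mirrors the markers.

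The profiles of the genes over the libraries are described here by Pearson's r of log2(FPKM + 1) over 6 libraries that share sort, amplification and the low endothelial content of Normal Ms1608. Plat had an r of 0.93 with F3 and 0.92 with Tfpi, and F3 and Tfpi had 0.81. Without Normal Ms1608 these were 0.95, 0.96 and 0.997 over 5 libraries. Vwf and Thbd had an r of 0.92 over 6 libraries and 0.94 over 5. The genes did not split cleanly, since the highest r of all pairs over 6 libraries was that of Thbd and Tfpi at 0.94, with 0.71 over 5. Plat also had an r of 0.91 with Vwf and 0.85 with Thbd over 6 libraries (0.84 and 0.86 over 5), and Vwf and Tfpi had 0.85 over 6 and 0.64 over 5. Procr correlated with Tfpi and F3 at 0.53 and 0.32, which dropped to 0.11 for each without Normal Ms1608.

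Marker genes of other cell types moved with some of these profiles. The 12 fibroblast markers summed to 5959, 5562 and 1056 FPKM for MI, against 752, 941 and 192 FPKM for Normal, and 1 of them, Fap, was listed at 0 in Normal Ms1608. Their mean log2 level had an r of 0.93 with F3, 0.93 with Plat and 0.93 with Tfpi over 6 libraries, and 0.96, 0.88 and 0.96 over the 5 without Normal Ms1608. Thbd and Vwf had an r of 0.97 and 0.91 with the pan-endothelial mean over 6 libraries, and 0.87 and 0.80 over 5. For F3, Tfpi and Plat the r with the pan-endothelial mean was 0.52, 0.84 and 0.77 over 6 libraries, and 0.33, 0.36 and 0.55 over 5. Thbd and Vwf in turn had an r of 0.78 and 0.74 with the fibroblast mean over 6 libraries, and 0.57 and 0.50 over 5. The part of fibroblast RNA in the levels of F3, Plat and Tfpi was not tested. Platelet and megakaryocyte markers, which bear on Vwf, summed to 50.4, 75.1 and 85.0 FPKM for MI, against 29.4, 42.5 and 4.02 FPKM for Normal. Of the 12 markers, 0, 3 and 1 were listed at 0 for MI, against 2, 1 and 2 for Normal. Most of each sum was Pf4, at 35.1, 68.2 and 59.2 FPKM for MI, against 15.1, 30.6 and 2.27 FPKM for Normal. Of the 4 tested markers, only Pf4 was higher in every MI than in every Normal library (25% of all tested genes), and Clec1b was highest in Normal Ms1537. The mean log2 level of the 12 markers had an r of 0.39 with Vwf over 6 libraries and of -0.81 over the 5 without Normal Ms1608. The 10 markers of mural cells, which surround vessels, summed to 27.3, 33.5 and 25.9 FPKM for MI, against 31.6, 31.8 and 1.21 FPKM for Normal. Their r was 0.94 with Tfpi and 0.95 with Thbd over 6 libraries, and 0.79 and 0.61 over 5. The part of platelet or mural cell RNA was not tested.

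**Figure D4:**
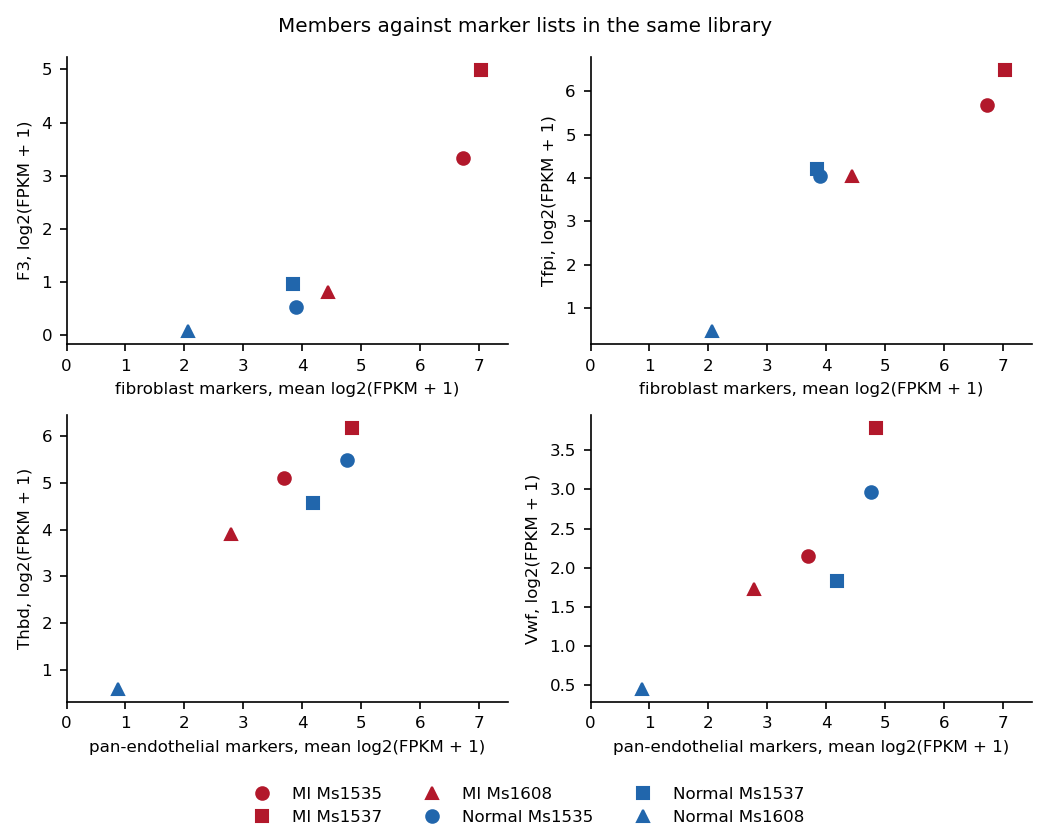
Levels of F3 and Tfpi against the mean of 12 fibroblast markers (upper panels) and of Thbd and Vwf against the mean of 18 pan-endothelial markers (lower panels), all in log2(FPKM + 1), 1 point for each library. MI Ms1535 and Ms1537 stand at the upper right for F3 and Tfpi, and Normal Ms1608 at the lower left in all panels.

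Many other tested genes shared these profiles. Among 8932 tested genes with an established name, those most like Vwf were Spns2, Ggcx and Stard8 (r = 0.998, 0.998 and 0.996 over 6 libraries). For Thbd they were Akip1, Dhrs3 and Etfb (r = 0.9981, 0.9978 and 0.9970), and for Tfpi Cetn2 and Fbxo18 (r = 0.9976 and 0.9975). For F3 they were Pmm2, Manba and Comp (r = 0.994, 0.992 and 0.991), and for Plat As3mt, Fbxl4 and Mettl21a (r = 0.994, 0.993 and 0.993). Counted over all 10168 tested genes, an r above 0.95 was found for 599 genes with Tfpi, 426 with Thbd, 224 with Plat, 143 with F3, 91 with Vwf and 12 with Procr. These counts include the gene itself, except for F3, which was not tested. The genes nearest to Procr were Fkbp1a, Bckdha and Ift46 (r = 0.96 for each). For the low genes F8 and Plau the nearest were Ces2e, Rps4l and Sorbs2 (r = 0.98 for each) and Meis2, Xrcc6 and Tet2 (r = 0.999, 0.991 and 0.98).

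Other genes of coagulation and fibrinolysis were read from 7 lists that hold 68 different genes. The table had 67 of them, and 35 passed the filter. Of these 35, 0 were called by limma, 7 were higher and 0 lower in MI at an unadjusted p under 0.05 (16.1% of all tested genes were higher), 9 did not overlap between groups in the direction of MI (25% of all tested genes), and the median log2 difference was 0.76, against 0.78 over all tested genes. Among the circulating coagulation factors, which the liver mostly makes, 1 of 14 passed the filter. This was F13a1, the fibrin-crosslinking transglutaminase, with MI values of 2.69, 3.20 and 16.7 FPKM, next to Normal values of 1.06, 0.747 and 0.203 FPKM. Every MI library lay above every Normal library (log2 difference 1.99, SE 0.70, limma adjusted p = 0.252). Of 12 macrophage and monocyte markers 11 were tested, and 4 did not overlap between the groups in the direction of MI (25% of all tested genes). Lyz2, Cd14, Mrc1 and Ly6c2 were highest in Normal Ms1608. Csf1r and C1qa were among the 4 and, like F13a1, peaked in MI Ms1608. Csf1r ran at 6.81, 8.62 and 22.7 FPKM against 1.87, 1.04 and 2.77 FPKM, and C1qa at 4.64, 4.31 and 38.2 FPKM against 3.27, 3.25 and 2.28 FPKM. The 12 macrophage and monocyte markers together summed to 999, 1362 and 2478 FPKM against 174, 263 and 3317 FPKM, and their part was not tested.

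The list of fibrinolysis genes and their inhibitors gave 0 calls. Serpine2, protease nexin-1, an inhibitor of thrombin and plasminogen activators, ran at 19.4, 81.3 and 31.8 FPKM for MI, against 12.7, 10.3 and 0.856 FPKM for Normal, without overlap (log2 difference 2.53, SE 0.93, limma adjusted p = 0.259). Plgrkt, a plasminogen receptor, had 42.7, 84.3 and 21.8 FPKM against 6.95, 18.02 and 15.8 FPKM (log2 difference 1.69, SE 0.75, limma adjusted p = 0.302). In this list of 11 genes 5 were tested, and 2 were higher at an unadjusted p under 0.05, against 16.1% of all tested genes. The same 2 did not overlap between the groups, against 25% of all tested genes in the direction of MI. The median difference was 0.27, against 0.78 over all tested genes.

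The anticoagulant cofactors and the genes around von Willebrand factor gave a similar count of 0 calls. Of 10 natural anticoagulants, 5 were tested, with 0 at an unadjusted p under 0.05, against 16.1% of all tested genes higher in MI. Their median difference was 0.66, against 0.78 over all tested genes. Pros1, protein S, the cofactor of activated protein C and of Tfpi, ran at 52.8, 49.0 and 14.3 FPKM for MI, against 25.7, 24.6 and 17.2 FPKM for Normal. Gas6, a relative of protein S, had 315, 121.7 and 36.5 FPKM against 79.7, 94.9 and 1.62 FPKM, and Tfpi2, a related Kunitz-type inhibitor, 3.63, 5.64 and 1.095 FPKM against 1.27, 3.16 and 0.0400 FPKM, both with overlap. The list for von Willebrand factor storage, secretion and cleavage held 12 genes, not all of which act on that factor itself. Of these, 6 were tested, with a median of 1.29, against 0.78 over all tested genes. At an unadjusted p under 0.05, 2 were higher, against 16.1% of all tested genes. The 2 were Cd63, a membrane protein of Weibel-Palade bodies and of lysosomes in many cells, and Rab27a, a regulator of secretory granules. Cd63 had 115, 114 and 43.5 FPKM against 39.9, 30.1 and 2.62 FPKM, and Rab27a 11.2, 3.66 and 8.01 FPKM against 1.68, 0.230 and 3.39 FPKM (limma adjusted p = 0.285 and 0.290).

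Of 6 enzymes by which endothelium is known to restrain platelets, all were tested and 2 were higher at an unadjusted p under 0.05, against 16.1% of all tested genes. Ptgis, prostacyclin synthase, ran at 84.8, 94.8 and 16.2 FPKM for MI, against 13.6, 13.03 and 0.304 FPKM for Normal (log2 difference 3.02, SE 1.08, limma adjusted p = 0.255). Ptgs1, a cyclooxygenase upstream of it, had 6.67, 4.12 and 2.78 FPKM against 0.708, 0.883 and 0.0595 FPKM (log2 difference 1.82, SE 0.52, limma adjusted p = 0.245). Both separated the groups, as did 25% of all tested genes in the direction of MI, although Ptgis in MI Ms1608 was close to Normal Ms1535. The sum of the fibroblast markers, at 5959, 5562 and 1056 FPKM against 752, 941 and 192 FPKM, was likewise highest in MI Ms1535 and Ms1537 and lowest in Normal Ms1608. Dcn was the largest part of each sum. Col1a2, Col3a1, Pi16 and Cthrc1 departed from this order, and the other markers kept it. In Normal Ms1608, Col1a2 and Col3a1 stood at 37.9 and 40.9 FPKM, above the other Normal libraries. The part of fibroblast RNA in the levels of Ptgis and Ptgs1 was not tested. The 3 tested of 6 protease receptors had 0 at an unadjusted p under 0.05, against 16.1% of all tested genes higher in MI. Their median difference was 0.67, against 0.78 over all tested genes. Lrp1, which clears protease and inhibitor complexes, ran at 4.66, 13.2 and 6.198 FPKM against 1.32, 0.940 and 19.1 FPKM. Its highest level, like that of Plaur, was in Normal Ms1608.

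All 10 transcription factors known to act on such genes were tested. At an unadjusted p under 0.05 there were 0, against 16.1% of all tested genes higher in MI. The median difference was 0.72, against 0.78 over all tested genes. Klf2, a flow-responsive factor known to activate Thbd in endothelium, ran at 32.9, 72.8 and 95.7 FPKM for MI, against 37.4, 11.4 and 133 FPKM for Normal. Klf4, its relative, had 63.8, 78.6 and 49.3 FPKM against 35.8, 30.1 and 64.7 FPKM. Klf2 was highest and Klf4 second highest in Normal Ms1608, the library with the highest pan-leukocyte and lowest pan-endothelial sums (4714 and 41.8 FPKM). The part of these factors in the level of Thbd was not tested. Fos, part of the AP-1 factor, had 324, 399 and 320 FPKM against 67.1, 67.7 and 354 FPKM, and Gata2, an endothelial and blood lineage factor, 7.91, 11.5 and 3.19 FPKM against 4.48, 3.92 and 0.108 FPKM (limma adjusted p = 0.317 and 0.410).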

How the data were processed

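RNA of 6 sorted-cell samples was sequenced. The authors deposited FPKM values for 45038 genes, 1 column for each library, made with STAR 2.4.2a and Cufflinks 2.2.1 on GRCm38, per the submitters' processing notes. No source used here states the annotation release, the strand setting or how reads with several hits were counted.

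A gene was tested if 3 or more libraries reached 1 FPKM (10168 genes). The test was limma 3.58.1 (R 4.3.3) on log2(FPKM + 1), with group as the only term and the trend option on. P-values were adjusted over all tested genes by Benjamini-Hochberg, with a threshold of 0.05. Log2 differences are signed as MI minus Normal and are understated for low genes by the pseudocount of 1. The fit was tested first on simulated libraries with a smaller spread than these and with no library set apart. That test shows neither power nor error rate for the present libraries.

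Depth was read from the steps of 1 fragment in low values of genes with 1 transcript of at least 1000 bases. The implied totals are given with the samples, and 96.1% to 97.0% of the low values lay within 0.1 of a whole number. The totals were fitted to those values, and the labels' protocol gives a lower depth, which was not reconciled. Implied fragments of a gene assume its longest transcript. Fragments of amplified RNA are not independent molecules, and the floor of 3 fragments covers counting error only.

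Positions are from GENCODE M21. The genes and lists were chosen with earlier results of these data known. Genes named from the lists are up to 2 a list with the lowest p, plus Plaur, Serpine2, Klf2, Klf4 and Pros1. For likeness, up to 3 of the nearest tested genes were named for each gene, leaving out predicted genes and clone names. Some genes that these rules name are not reported here.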

Additional observations from a re-analysis of the deposited data

How the results depend on the processing

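Leaving out both Ms1608 libraries raised the number of genes called over all tested genes from 1 to 1469, and scaling to pan-endothelial markers without Normal Ms1608 raised it to 2162. Leaving out 1 library at a time gave 1 to 459 calls, the highest without Normal Ms1608, and 2 without MI Ms1537. Of the 8 genes 0 were called with all libraries and 1, Tfpi, under each of the first 2 settings. All other settings gave 0. The direction of Vwf turned under quantile scaling, to -0.47. The cause was not tested. Thbd, Procr, Plat and Tfpi kept a difference above 0 under all 17 alternatives, with ranges of 0.03 to 2.47, 0.08 to 2.49, 0.55 to 2.48 and 1.26 to 3.16, and F3 under all 14, with 1.38 to 3.803. F8, near 0, kept its sign under 9 of 13. The differences of F8 and Plau moved to 0.63 and 0.82 under the pan-endothelial scaling, where their levels near 0 only mirror the markers, and that of Plau to 0.81 with a pseudocount of 0.1. Scaling shifted the median of all genes from 0.78 to 0.27 (median-ratio), 0.20 (upper-quartile) and -0.05 (quantile). Without a filter, 30727 genes were tested and Tfpi had a limma adjusted p of 0.649. Genes below the filter were not quantile scaled.

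Deviations from the group means correlated at -0.05, 0.098 and 0.087 over genes between libraries of equal number, Ms1535, Ms1537 and Ms1608. Not every library correlated best with its own number. With 3 libraries a group and Normal Ms1608 set apart, these values cannot tell whether equal numbers mark 1 mouse. With the replicate block, 0 of the 8 genes and 1 of all tested genes were called (Tfpi limma adjusted p = 0.205). The block lowered the SE from 1.09 to 0.83 for Tfpi, 1.20 to 0.91 for Thbd and 0.88 to 0.71 for Plat. It also lowered the SE of Vwf and Procr, while the median SE of all tested genes rose from 0.71 to 0.78.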
